A study of Mus musculus with 24 samples.

Results

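The genes described here encode the cullins and the substrate adaptors that cullin ubiquitin ligases use: the SOCS-box ankyrin proteins (Asb), the BTB-kelch proteins (Klhl and Kbtbd), the F-box proteins (Fbxo, Fbxl and Fbxw) and the cullin scaffolds (Cul). Members were all genes whose array symbol begins with one of these 7 family names followed by a number, or with Kbtbd, apart from Fbxo32. The rule found 115 genes with 174 probes among 16593 named genes. A member was tested when a probe was detected on at least 4 of the 24 arrays, which left 74 members with 98 detected probes, of 8945 tested genes. The tested members were 10 of 17 Asb, 17 of 29 Klhl, 4 of 6 Kbtbd, 7 of 7 Cul, 20 of 28 Fbxo, 10 of 13 Fbxl and 6 of 15 Fbxw genes. Of the other 41, 33 were detected on no array by any probe and 8 on 1 to 3 arrays by the best probe, among them Asb4, Asb5, Asb15, Asb16, Klhl2, Klhl13 and Fbxo22.

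A cullin is a rigid scaffold that holds a RING protein, which brings the ubiquitin-loaded enzyme, at one end and an exchangeable adaptor at the other. The adaptor chooses the protein to be ubiquitinated: F-box proteins bind Cul1 through Skp1, BTB-kelch proteins bind Cul3 directly, and SOCS-box proteins bind Cul5 or Cul2 through elongins B and C. Attachment of the small modifier Nedd8 activates the cullin, and the COP9 signalosome removes it. In skeletal muscle such ligases mark sarcomeric, signalling and mitochondrial proteins for the proteasome, and the F-box protein atrogin-1 (Fbxo32) is a textbook marker of atrophy.

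RNA came from the gastrocnemius of male mice, labelled as 6 to 7 weeks of age, and was hybridised to Illumina bead arrays. The labels do not say whether this age is that at the start or the end of the 7 weeks of treatment. In the mdx mice, which carry a germline mutation of the dystrophin gene, 5 were injected with PBS and ran voluntarily on wheels for 7 weeks (mdx running), 5 received weekly doses of 5 mg/kg of sActRIIB-Fc, a soluble activin receptor trap (mdx sActRIIB-Fc), 5 received the trap and ran (mdx combination) and 5 received PBS alone (mdx PBS). The trap captures myostatin, activins and related ligands. The 4 wild-type mice were untreated C57Bl/10ScSnJ animals for which no injection is named, so dystrophy and injection cannot be told apart. Each array is labelled as a separate sample of its group.

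The arrays detected 10938 to 11971 probes in the mdx groups and 10404 to 10634 in wild type, and their median raw signals were 76 to 99 in mdx and 72.3 to 90.6 in wild type. The muscle label held: all 9 muscle-fibre genes tested were detected on every array, with a mean level of 14.2 to 14.5 (log2) in every group. The 2 dystrophin probes were detected on 0 arrays, so they give no check of the genotype. Transcripts of hepatocytes were highest on 4 arrays, namely mdx running replicate 2, mdx combination replicates 1 and 2, and wild-type replicate 2. The mean level of 11 hepatocyte genes was 9.02 to 11.12 there, without a clear break from the next arrays. These were mdx running replicate 1 (8.18), wild-type replicates 1 (8.00) and 3 (7.82) and mdx PBS replicate 4 (7.65), and the lowest array had 4.69. Leaving out the 4 richest arrays thus does not remove all of this signal. In bulk muscle, fewer cells of a type and less RNA per cell cannot be told apart. All levels below are log2 normalized signals of 1 probe per gene, changes are log2 differences ± standard error of the model, and a member passed when its Benjamini-Hochberg adjusted p over 8945 genes was below 0.05 in limma.

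In mdx PBS muscle the cullin adaptors shifted in both directions, with 10 members higher and 20 lower than in wild type. Asb genes that passed were all lower, while Klhl6 and Cul7 were higher by 1.19 and 1.07 (log2) and Fbxl13 was detected in mdx PBS alone of these groups. The members that passed made up 40.5% of the 74, against 37.7% of all tested genes, and the share of all genes was 19.3% on the higher side and 18.5% on the lower. The median change of the members was -0.19, against -0.05 for all tested genes. By direction, 13.5% of the members were higher and 27% lower. How the arrays were scaled changed the split, for the members and for all genes alike. With each array set to the same median over all probes, 17 members were higher and 14 lower (23% and 18.9%), against 24.6% and 9.63% of all genes. With the median of detected probes the counts were 8 and 32 (10.8% and 43.2%), against 15% and 32.2% of all genes. In the authors' deposited log2 matrix they were 9 and 20 (12.2% and 27%), against 19.3% and 19% of all genes. The share of members on the lower side was thus above that of all genes under each scaling, without a test of that difference. These 3 scalings put the median of all genes at 0.07, -0.19 and -0.04, and the members' median lay below it by 0.08, 0.08 and 0.11, against 0.14 in the quantile-normalized values. Under both median scalings 20 of the 30 members passed in the same direction, 8 higher and 12 lower.

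**Figure D1:**
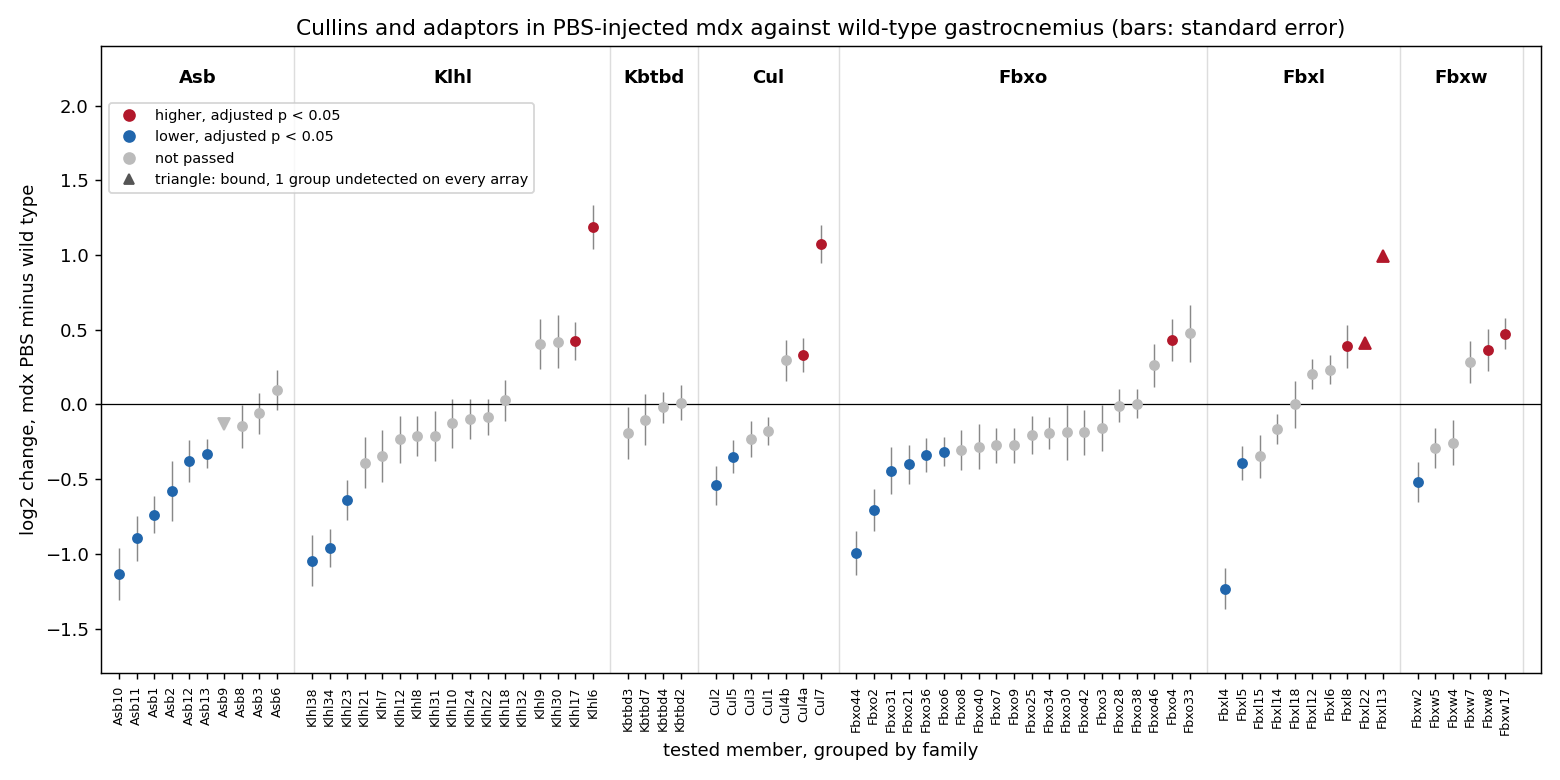
Log2 change of the 74 tested members in mdx PBS minus wild type (vertical axis), grouped by family and ordered by size within each (horizontal axis). Points are changes with standard error, red for the 10 members that passed as higher, blue for the 20 that passed as lower and grey for the rest; triangles without error bars are bounds for members undetected on every array of 1 group, and Klhl32, for which no bound holds, has no point. Blue points fill the low end of the Asb panel, where no red point stands.

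The SOCS-box ankyrin genes that passed all fell. Of 10 tested, 6 passed as lower, beside 18.5% of all tested genes. Under the other scalings (equal medians of all probes, equal medians of detected probes, the deposited matrix) 4, 8 and 6 did, with 0 higher each time. The lower shares of all genes were then 9.63%, 32.2% and 19%. Asb10, a SOCS-box gene of striated muscle, had levels of 8.31, 8.81, 8.56, 8.66 and 8.80 in mdx PBS, against 9.76, 9.76, 9.66 and 9.87 in wild type. The groups lay well apart, with every mdx PBS array below the lowest wild-type array, and the change was -1.13 ± 0.17 (adjusted p = 1.59e-05). Asb11, an adaptor of the endoplasmic reticulum membrane that acts on muscle progenitors in zebrafish, had 7.74, 8.21, 8.15, 8.51 and 7.96 in mdx PBS, against 8.90, 9.07, 9.36 and 8.70 in wild type. It too showed no overlap, with a change of -0.90 ± 0.15 (adjusted p = 5.25e-05).

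Asb2 encodes the adaptor that directs filamins to degradation in muscle and blood cells. Its levels were 13.01, 13.39, 13.29, 13.13 and 13.66 in mdx PBS, against 13.99, 13.76, 13.82 and 13.92 in wild type. All mdx PBS arrays were below all wild-type arrays, but the call was near the limit, with a change of -0.58 ± 0.20 (adjusted p = 0.0266). It was lost in 6 of 37 other settings, among them leaving out mdx PBS replicate 1 or 4, or wild-type replicate 1 or 4, where its adjusted p reached 0.0711. Asb1, whose protein carries the same SOCS box, had 5.95, 5.91, 5.86, 5.86 and 5.98 in mdx PBS, against 6.54, 6.49, 6.84 and 6.73 in wild type. Its mdx PBS arrays were the tightest set of values among the Asb genes shown, and the change was -0.74 ± 0.13 (adjusted p = 5.81e-05). Asb12 and Asb13 passed with smaller changes of -0.38 and -0.33, and both were lost under equal medians of all probes. Asb8 had a change of -0.15 ± 0.14 (adjusted p = 0.436), and Asb3, Asb6 and Asb9 likewise did not pass.

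Among the BTB-kelch genes 2 passed as higher and 3 as lower of 17 Klhl members, and none of 4 Kbtbd members passed. The shares of all tested genes were 19.3% higher and 18.5% lower. Klhl38, a kelch gene expressed in striated muscle, had 6.21, 6.88, 6.77, 6.85 and 6.70 in mdx PBS, against 7.56, 7.57, 7.97 and 7.80 in wild type. Even the highest mdx PBS array stood below the lowest wild-type array, and the change was -1.05 ± 0.17 (adjusted p = 3.17e-05). Klhl34 had 5.33, 5.90, 5.51, 5.93 and 5.91 in mdx PBS, against 6.46, 6.72, 6.84 and 6.69 in wild type, a change of -0.96 ± 0.13 (adjusted p = 2.72e-06). A second detected probe of Klhl34 did not show this difference, with a change of -0.11 ± 0.16 (adjusted p over probes = 0.634). Klhl23, detected on 3 of 5 mdx PBS and 4 of 4 wild-type arrays, fell by 0.64 ± 0.13 (adjusted p = 0.000619).

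Klhl6, known for its part in B-cell germinal centres, went the other way. It had 8.06, 7.74, 7.94, 8.00 and 7.61 in mdx PBS, against 6.81, 6.53, 6.57 and 6.81 in wild type. Its groups did not overlap, the change was 1.19 ± 0.15 (adjusted p = 1.3e-06), and a second probe gave 1.01 ± 0.15. Klhl17, which encodes an actin-binding adaptor first described in brain, was higher by 0.43 ± 0.13 (adjusted p = 0.0101), a call lost without wild-type replicate 2 (adjusted p = 0.0612), without the 4 arrays rich in hepatocyte transcripts, and with the hepatocyte level as a covariate.

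Several kelch genes with known muscle or cell-division roles did not pass in mdx PBS. Klhl31, needed for normal skeletal muscle in mice, had a change of -0.21 ± 0.17 (adjusted p = 0.343). Klhl21, a Cul3 adaptor of dividing cells, had 11.10, 11.76, 11.21, 11.09 and 11.53 in mdx PBS, against 11.56, 11.77, 11.63 and 11.95 in wild type. These ranges overlapped, and the change was -0.39 ± 0.17 (adjusted p = 0.075). Klhl30 stood at 0.42 ± 0.18 (adjusted p = 0.0635), Klhl22 at -0.09 ± 0.12 and Klhl24 at -0.10 ± 0.13, while the Kbtbd2 change was 0.01 ± 0.11.

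As among all tested genes, the F-box genes that passed moved in both directions. The Fbxo genes gave 1 higher and 6 lower of 20, the Fbxl genes 3 higher and 2 lower of 10, and the Fbxw genes 2 higher and 1 lower of 6. Of all tested genes, 19.3% were higher and 18.5% lower. Fbxl4, a mitochondrial F-box protein whose loss in humans depletes mitochondrial DNA, had 7.79, 7.79, 8.05, 7.62 and 7.34 in mdx PBS, against 9.21, 8.96, 8.85 and 8.79 in wild type. A gap of more than the whole mdx PBS spread separated the groups, and the change was -1.23 ± 0.14 (adjusted p = 2.93e-07). Fbxo44 had 5.13, 5.68, 5.69, 5.42 and 5.77 in mdx PBS, against 6.44, 6.34, 6.74 and 6.60 in wild type, a change of -0.995 ± 0.15 (adjusted p = 1.22e-05). Fbxo44 was detected on 4 of 5 mdx PBS and all 4 wild-type arrays. Fbxo2, its relative in the family that includes receptors for sugar-bearing proteins, was detected on 1 of 5 mdx PBS arrays and 4 of 4 wild-type arrays. Its measured change was -0.71 ± 0.14 (adjusted p = 0.000368), with mdx PBS signals mostly at background, so its size there is not resolved. The adjusted p in limma is for this measured difference, which uses undetected mdx PBS signals. Fbxo2 counts among the members that passed as lower, and was detected on 7 arrays in all. It met the detection limit only through the 4 wild-type arrays, as the mdx arrays alone fell short of that limit. Fbxo6 of the same family fell by 0.32 ± 0.10 (adjusted p = 0.014). Fbxw2 fell by 0.52 ± 0.13 (adjusted p = 0.00302), a call that equal medians of all probes removed.

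Fbxl13 had 6.74, 6.46, 6.69, 6.57 and 6.17 in mdx PBS, against 4.74, 4.95, 4.89 and 4.82 in wild type. It was detected on all 5 mdx PBS arrays and on none of the 4 wild-type arrays. Its level was thus at least 1.99-fold higher in mdx PBS, a bound set by the lowest detected signals of the wild-type arrays. The adjusted p of 4.38e-06 in limma is for the measured difference, which uses undetected wild-type signals, and does not test the bound. Fbxl22, a sarcomeric F-box protein that acts on alpha-actinin and filamin C in heart muscle, had 6.22, 6.00, 5.70, 5.78 and 6.02 in mdx PBS, against 5.19, 5.05, 5.49 and 5.01 in wild type. Likewise undetected on the wild-type arrays, it was at least 1.33-fold higher, and its adjusted p of 9.69e-05 is also for the measured difference. Fbxl13 and Fbxl22 count among the members that passed as higher, and met the detection limit through mdx arrays alone. Fbxw17 was higher by 0.47 ± 0.10 (adjusted p = 0.000805) and Fbxo4, an adaptor of cyclin D1, by 0.43 ± 0.14 (adjusted p = 0.0175). Fbxl8 at 0.39 ± 0.14 (adjusted p = 0.0357) and Fbxw8 at 0.36 ± 0.14 (adjusted p = 0.0458) passed narrowly, and Fbxw8 kept its call in 20 of 37 other settings.

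The F-box genes on a preset list of muscle adaptors did not all pass. Fbxl4, Fbxo44, Fbxl22 and Fbxw8 passed as given above. Fbxo21 passed as lower at -0.40 (adjusted p = 0.0176), a call whose limits are given below. Fbxo40, an adaptor for insulin receptor substrate 1 in muscle, had 5.95, 6.15, 6.18, 6.20 and 6.07 in mdx PBS, against 6.37, 6.64, 6.22 and 6.35 in wild type. Its ranges were apart by a narrow margin, yet the change of -0.28 ± 0.15 did not pass (adjusted p = 0.143). Fbxo30, also called MUSA1 and linked to atrophy under loss of BMP signalling, had a change of -0.19 ± 0.19 (adjusted p = 0.448). Fbxw7, which targets cyclin E and Notch, had 0.28 ± 0.14 (adjusted p = 0.117), with a second probe at -0.14 ± 0.15. Fbxw5 had -0.29 ± 0.13 (adjusted p = 0.0881). Fbxl14, an adaptor for Snail named as the Fbxl member with the highest mean signal, had -0.16 ± 0.10 (adjusted p = 0.198).

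All 7 cullins were tested, and 2 were higher and 2 lower in mdx PBS, beside 19.3% and 18.5% of all tested genes. Cul7, the scaffold that pairs with Fbxw8, had 8.78, 8.52, 8.35, 8.16 and 8.55 in mdx PBS, against 7.42, 7.12, 7.45 and 7.60 in wild type. The ranges were far apart, and the change of 1.07 ± 0.13 (adjusted p = 7.16e-07) passed in every setting run. Cul4a, the scaffold bound by Ddb1, was higher by 0.33 ± 0.11 (adjusted p = 0.023), but by 0.12 under equal medians of detected probes, where its call was lost. Cul4b stood at 0.29 ± 0.14 (adjusted p = 0.096). Cul2, the scaffold of the von Hippel-Lindau ligase, was detected on 1 of 5 mdx PBS arrays and 3 of 4 wild-type arrays by the probe used. Its measured change was -0.54 ± 0.13 (adjusted p = 0.00191), with mdx PBS signals mostly at background, and its second probe gave -0.41 ± 0.12. Cul5, the partner of the Asb proteins, fell by 0.35 ± 0.11 (adjusted p = 0.0143), a call lost under equal medians of all probes. Cul3, the partner of the kelch proteins, had a change of -0.23 ± 0.12 and Cul1, the partner of the F-box proteins, one of -0.18 ± 0.09, and neither passed.

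Between mdx PBS and wild type, the ranges of the arrays did not overlap for 8 members on the higher side and 18 on the lower, where 17.2% and 15.1% of all tested genes did so. The remaining members that passed as lower were Fbxo31 (-0.44), Fbxo21 (-0.40), Fbxl5 (-0.39) and Fbxo36 (-0.34). Fbxl5 is the iron-sensing adaptor for iron regulatory protein 2, and its call was lost without wild-type replicate 2 (adjusted p = 0.0524) and without the 4 arrays rich in hepatocyte transcripts. Equal medians of all probes ended the calls of all 4, with changes of -0.33 for Fbxo31, -0.20 for Fbxo21, -0.13 for Fbxl5 and -0.11 for Fbxo36. Equal medians of detected probes ended that of Fbxl8, at 0.32. Leaving out wild-type replicate 4 ended the calls of Fbxo4 (adjusted p = 0.0698), Fbxo21 (adjusted p = 0.0769) and Fbxo36 (adjusted p = 0.145), and leaving out mdx PBS replicate 4 also ended that of Fbxo36. The calls of Cul4a, Fbxl8, Fbxo31, Asb12 and Fbxw8 were lost without any 1 of 4, 5, 5, 7 and 12 of the 24 arrays, with adjusted p of up to 0.0715, 0.106, 0.0992, 0.106 and 0.219. Across the 30 members that passed, 16 passed in every setting that tested them, among them Asb1, Asb10, Asb11, Klhl6, Klhl38, Fbxl4, Fbxl13, Fbxo6 and Cul7. For Fbxl13 every setting used its undetected wild-type signals, so passing in all of them adds nothing to the bound given above.

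**Figure D2:**
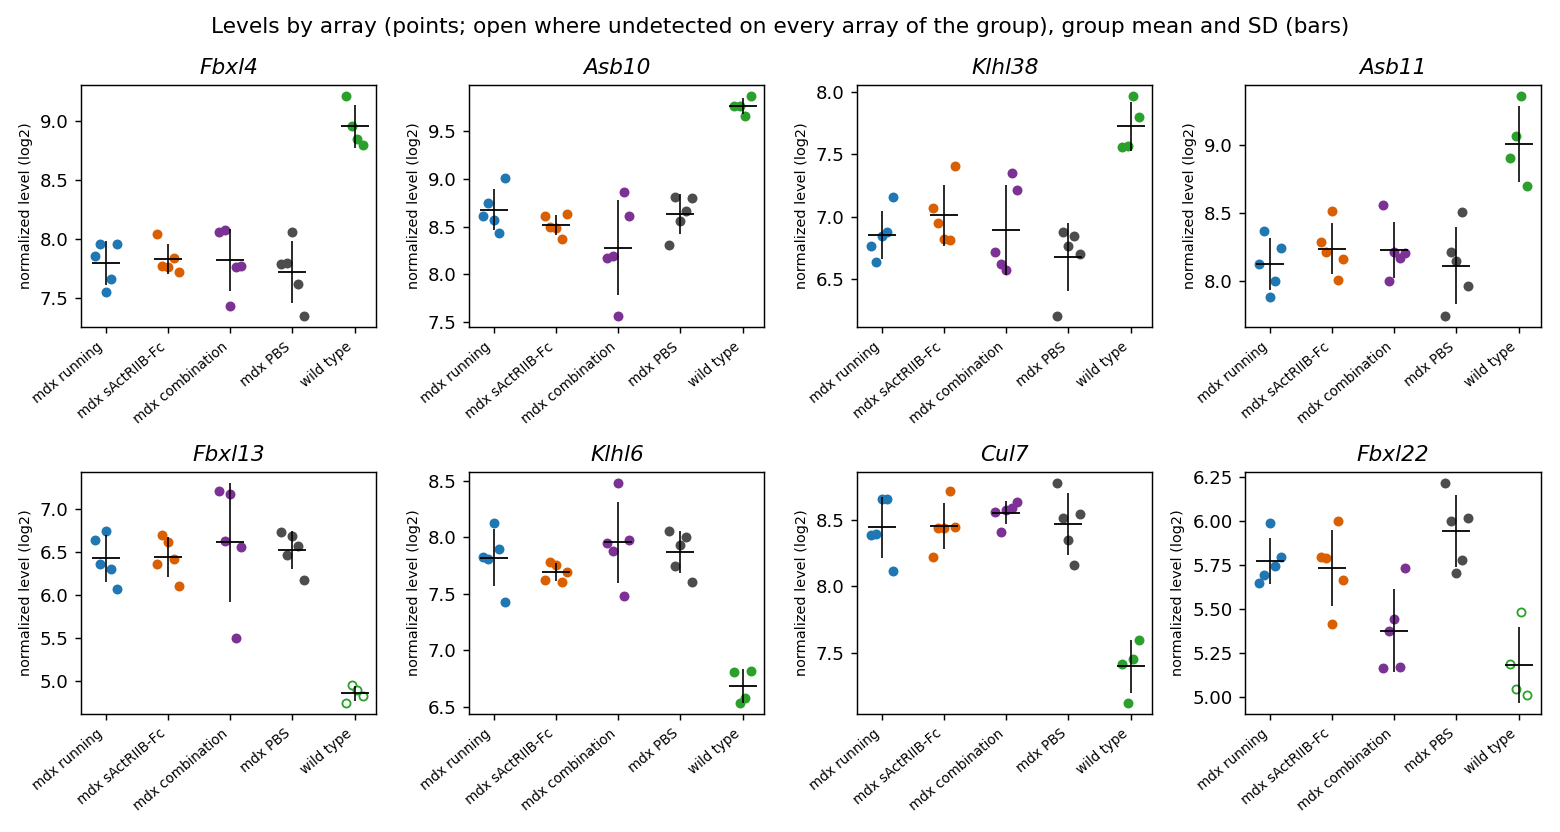
Normalized level (log2) of 8 members on each array, with the mdx groups to the left of wild type; each panel has its own vertical axis. Points are arrays and the cross bars are the group mean and SD (n = 5 per mdx group, 4 wild type); wild-type points lie above all mdx points in the upper panels for Fbxl4, Asb10, Klhl38 and Asb11 and below all of them for Fbxl13, Klhl6 and Cul7. Open points mark groups in which the probe was undetected on every array, as for Fbxl13 and Fbxl22 in wild type.

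Promoters are shown for the 3 members with the lowest and the 3 with the highest fitted change in mdx PBS among those that passed and have a single promoter in the RefSeq set, so that adaptors that moved in opposite directions can be read side by side. Fbxl4, Asb10 and Klhl34 were lower, and Fbxl13, Klhl6 and Cul7 higher. The sequences run from 250 bases before to 50 bases after the annotated start, are from RefSeq on GRCm38.p6, and are written 5′ to 3′ on the strand of the gene. Capitals mark the E-box CAGCTG, a palindrome that reads the same on both strands and is a form bound by the MyoD family of myogenic factors.
Fbxl4 (chr4:22357293-22357592, plus strand): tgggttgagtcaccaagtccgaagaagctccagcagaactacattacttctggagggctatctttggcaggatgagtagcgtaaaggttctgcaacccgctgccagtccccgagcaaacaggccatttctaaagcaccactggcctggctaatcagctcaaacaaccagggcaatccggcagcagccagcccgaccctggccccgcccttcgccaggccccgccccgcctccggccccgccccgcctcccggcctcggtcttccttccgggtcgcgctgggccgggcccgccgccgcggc
Asb10 (chr5:24540929-24541228, minus strand): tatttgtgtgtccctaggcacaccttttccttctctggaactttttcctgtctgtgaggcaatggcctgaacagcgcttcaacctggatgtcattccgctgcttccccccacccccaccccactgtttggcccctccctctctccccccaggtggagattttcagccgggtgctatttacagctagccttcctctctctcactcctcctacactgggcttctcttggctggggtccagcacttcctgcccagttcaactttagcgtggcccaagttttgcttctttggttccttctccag
Klhl34 (chrX:157818185-157818484, plus strand): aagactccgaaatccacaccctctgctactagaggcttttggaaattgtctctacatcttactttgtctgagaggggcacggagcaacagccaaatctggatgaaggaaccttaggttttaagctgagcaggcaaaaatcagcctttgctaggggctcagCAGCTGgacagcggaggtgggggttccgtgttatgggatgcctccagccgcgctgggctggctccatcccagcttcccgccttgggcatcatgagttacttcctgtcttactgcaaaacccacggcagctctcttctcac
Fbxl13 (chr5:21645556-21645855, minus strand): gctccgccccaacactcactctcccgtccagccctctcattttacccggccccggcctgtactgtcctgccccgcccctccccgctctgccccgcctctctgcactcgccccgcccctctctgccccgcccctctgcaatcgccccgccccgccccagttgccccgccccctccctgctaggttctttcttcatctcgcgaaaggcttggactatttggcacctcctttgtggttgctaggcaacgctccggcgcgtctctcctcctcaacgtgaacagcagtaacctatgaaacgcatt
Klhl6 (chr16:19983000-19983299, minus strand): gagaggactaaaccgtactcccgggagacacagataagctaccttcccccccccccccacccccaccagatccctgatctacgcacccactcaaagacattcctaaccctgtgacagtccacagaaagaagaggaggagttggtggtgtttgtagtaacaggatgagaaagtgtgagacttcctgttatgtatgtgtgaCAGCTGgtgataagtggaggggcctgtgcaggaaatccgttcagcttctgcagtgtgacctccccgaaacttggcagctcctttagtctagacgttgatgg
Cul7 (chr17:46650088-46650387, plus strand): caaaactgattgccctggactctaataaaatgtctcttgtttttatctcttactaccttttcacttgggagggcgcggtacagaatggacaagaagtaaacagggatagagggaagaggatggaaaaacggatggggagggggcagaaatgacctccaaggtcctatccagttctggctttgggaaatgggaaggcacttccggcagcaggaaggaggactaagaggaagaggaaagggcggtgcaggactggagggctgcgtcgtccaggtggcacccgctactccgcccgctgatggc
The motif stood 90 bases before the start of Klhl34 and 51 bases before that of Klhl6, and these letters are not in the other 4 windows. Of the 74 tested members, 60 had a promoter in the RefSeq set. The motif was in 12 of their 82 promoters, or 14.6%, against 16.3% of all 32851 mouse promoters of the same length. It was in 2 of 8 promoters of members that passed as higher and in 2 of 26 of those that passed as lower. The MEF2 site and the CArG box, searched on both strands, are in none of the 6 windows shown. They were in 2.44% and 2.44% of the members' promoters, against 3.19% and 1.63% of all promoters.

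The wider ligase machinery was described with 3 further gene lists. Of 20 tested genes for neddylation and cullin exchange, 0 were higher and 6 lower in mdx PBS, with a median of -0.18 against -0.05 for all genes, and under the other scalings 3, 13 and 7 were lower with 0 higher. The share of all genes on the lower side was 18.5% here and 9.63%, 32.2% and 19% under those scalings. Dcun1d2 and Dcun1d4, which help to load Nedd8 onto cullins, fell by 0.65 ± 0.11 (adjusted p = 6.87e-05) and 0.49 ± 0.12 (adjusted p = 0.00195). The others were signalosome subunits, Cops7b (-0.35), Cops8 (-0.31), Cops3 (-0.26) and Gps1 (-0.23). Nedd8 itself had a change of 0.14 ± 0.13 and the RING subunit Rbx1 one of 0.15 ± 0.13, and neither passed.

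Of 26 tested linkers and adaptors outside the 7 families, 4 were higher and 7 lower, beside 19.3% and 18.5% of all tested genes. Their median was -0.07, against -0.05 for all genes. Under the other scalings 6, 3 and 4 were higher, against 24.6%, 15% and 19.3% of all genes. On the lower side there were 6, 11 and 7, against 9.63%, 32.2% and 19%. The linkers that connect F-box and SOCS-box proteins to their cullins were among the lower ones. Skp1 fell by 0.62 ± 0.12 (adjusted p = 0.00021), Eloc by 0.60 ± 0.15 (adjusted p = 0.00229) and Elob by 0.34 ± 0.09 (adjusted p = 0.00363). The Cul4 linker Ddb1 had a change of -0.01 ± 0.15. Socs2 (-0.70), Dcaf11 (-0.58), Rhobtb2 (-0.57) and Crbn (-0.35) were also lower, and Enc1 (0.83), Kctd5 (0.51), Appbp2 (0.42) and Kctd10 (0.31) were higher. Among 7 muscle ligases named for comparison, 3 were lower and 0 higher, namely the atrophy markers Fbxo32 at -1.34 ± 0.22 (adjusted p = 4.96e-05) and Trim63 (MuRF1) at -0.74 ± 0.17 (adjusted p = 0.00131), and Trim54 (MuRF3) at -0.53 ± 0.16 (adjusted p = 0.0127).

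Markers of other cells moved between the same groups. Of 7 tested macrophage genes, 6 were higher in mdx PBS and 0 lower, and their summed level was 13.2 to 14.0 in mdx PBS, against 9.77 to 10.3 in wild type. Ctss, a macrophage marker, was detected on 0 of 4 wild-type arrays, and Itgam was detected on none of the 24. All 7 fibroblast and matrix genes and all 7 regenerating-fibre genes were higher, with summed levels of 14.1 to 14.5 and 14.9 to 15.6 in mdx PBS, against 13.7 to 13.9 and 11.5 to 11.7 in wild type. Of the 8 slow-fibre genes 5 were higher and 0 lower, with a median change of 0.94 and summed levels of 14.1 to 14.4 in mdx PBS, against 13.1 to 14.1 in wild type. The muscle-fibre list, which holds Ckm, Acta1 and Ttn beside fast-fibre genes, gave 1 of 9 higher and 0 lower. All 11 hepatocyte genes had a change below 0, with a median of -2.46, but 1 passed; their summed level was 8.16 to 11.7 in mdx PBS, against 8.42 to 15.2 in wild type. Of 5 endothelial genes 0 passed, of 2 adipocyte genes 1 was lower, and of 4 blood genes 1 was higher. The part of these cell types in the members' changes was not tested.

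The macrophage level also varied within the mdx groups, most widely in mdx combination. Replicate 4 had the lowest mean macrophage level of the 20 mdx arrays, 8.06, and replicate 3 the highest, 10.01. Fbxl13 had 7.21, 6.63, 7.18, 5.50 and 6.56 in replicates 1 to 5 of that group, and Klhl6 had 7.95, 7.88, 8.49, 7.48 and 7.98. Both were lowest on the array with the least macrophage signal, as were 6 of the 74 members (8.11%, against 24.3% of all genes). Asb10 had 8.17, 8.19, 7.56, 8.87 and 8.61 and Asb2 had 12.73, 12.69, 12.76, 13.92 and 13.47, with the highest value of each on that same array, as had 34 members (45.9%, against 29.6% of all genes). On replicate 3, with the most macrophage signal, 38 members were lowest (51.4%, against 27% of all genes) and 7 were highest (9.46%, against 23.1%). Each of these counts rests on a single array. The other mdx groups, in which the macrophage level varied less, gave 31, 20 and 22 members highest on the array with the least macrophage signal in mdx running, mdx sActRIIB-Fc and mdx PBS (41.9%, 27% and 29.7%, against 28.1%, 22% and 28.3% of all genes). In those groups 9, 9 and 21 were lowest on the array with the most (12.2%, 12.2% and 28.4%, against 14.8%, 18.3% and 20.9%). In the opposite order, 15, 10 and 20 were lowest on the array with the least (20.3%, 13.5% and 27%, against 26.8%, 18.2% and 25.1%). On the array with the most, 10, 13 and 8 were highest (13.5%, 17.6% and 10.8%, against 16.1%, 16.3% and 17.2%). In mdx PBS 22 members were thus highest and 20 lowest on the array with the least. Not every member kept one order: Asb2 in mdx running had its highest value, 13.34, on replicate 3 with the most macrophage signal (9.10) and 12.85 on replicate 5 with the least (8.46). In mdx combination Fbxl13 had the largest SD of any member, 0.69, against a median SD of 0.24 over members. Whether macrophage content takes part in these levels was not tested.

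**Figure D3:**
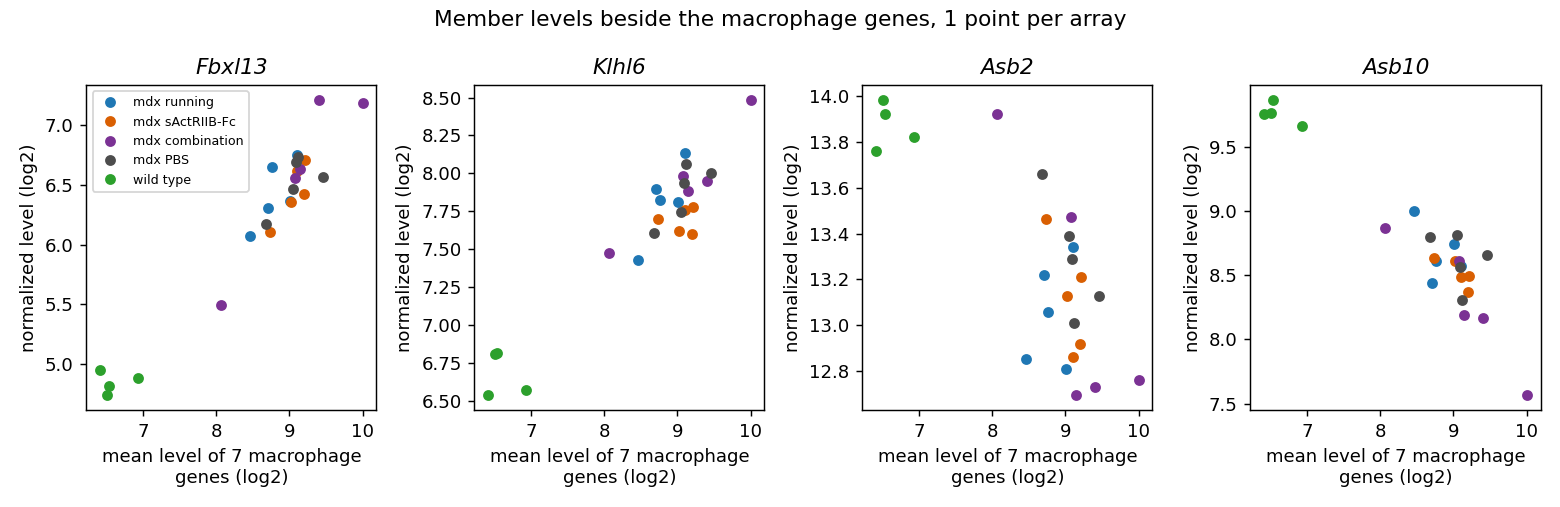
Levels of Fbxl13, Klhl6, Asb2 and Asb10 (vertical axes, log2) against the mean level of 7 macrophage genes (horizontal axis, log2), 1 point per array, coloured by group. The wild-type arrays form a separate cluster at macrophage levels of 6.41 to 6.94, and among the mdx arrays mdx combination replicates 4 and 3 mark the low end at 8.06 and the high end at 10.01.

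Each treated mdx group was also set against wild type, with the same 4 wild-type arrays in every comparison. In mdx running 9 members were higher and 18 lower, 36.5% of the 74 against 34.7% of all genes (17.8% higher and 16.9% lower). In mdx sActRIIB-Fc 11 were higher and 20 lower, 41.9% against 38.8% of all genes (19.8% higher and 19.1% lower). In mdx combination 11 were higher and 27 lower, 51.4% against 39.3% of all genes (19.5% higher and 19.7% lower). The share of members on the lower side in mdx combination, 36.5% against 19.7% of all genes, was the one furthest from its background, and its size moved with the scaling and the arrays used. Equal medians of all probes gave 15 higher and 13 lower there, with 17.6% of members on the lower side against 10.4% of all genes. Equal medians of detected probes gave 6 and 33, with 44.6% against 31.2% on the lower side. Leaving out the 4 arrays rich in hepatocyte transcripts gave 7 and 12, with 16.2% against 13.2%. In mdx running the same 3 settings gave 15 and 11, 7 and 32, and 6 and 12, with 14.9%, 43.2% and 16.2% of members on the lower side against 7.72%, 29.7% and 13.1% of all genes. In mdx sActRIIB-Fc they gave 17 and 13, 6 and 28, and 8 and 20, with 17.6%, 37.8% and 27% against 10.2%, 33.3% and 16.6%. In mdx PBS the counts without the 4 hepatocyte-rich arrays were 9 and 20, with 27% on the lower side against 16.7%.

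Asb10 was lower than wild type in all 4 mdx groups, with changes of -1.09 ± 0.17 in mdx running, -1.24 ± 0.17 in mdx sActRIIB-Fc, -1.48 ± 0.17 in mdx combination and -1.13 ± 0.17 in mdx PBS. Fbxl4 was lower by similar amounts in each, -1.16 ± 0.14, -1.13 ± 0.14, -1.13 ± 0.14 and -1.23 ± 0.14 in the same order. Cul7 was higher in each, by 1.05 ± 0.13, 1.06 ± 0.13, 1.16 ± 0.13 and 1.07 ± 0.13. For Fbxl4 and Cul7 the 4 changes thus lay within 1 standard error of each other. Fbxo40 passed as lower in mdx running at -0.48 ± 0.15 (adjusted p = 0.0158), in mdx sActRIIB-Fc at -0.60 ± 0.15 (adjusted p = 0.00294) and in mdx combination at -0.60 ± 0.15 (adjusted p = 0.00278). Klhl31 and Klhl21 passed as lower in mdx combination, both at -0.50 ± 0.17 (adjusted p = 0.0205 and 0.0236). Under equal medians of all probes Fbxo40 had -0.20, -0.33 and -0.37 in the same groups and passed in none of them. Its calls in mdx running and mdx combination, and those of Klhl31 and Klhl21, were also lost without the 4 arrays rich in hepatocyte transcripts. Klhl31 was lost under equal medians of all probes too, at -0.28. Passing here and not in mdx PBS is no test of a difference between the mdx groups, which is given by the direct comparisons that follow.

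**Figure D4:**
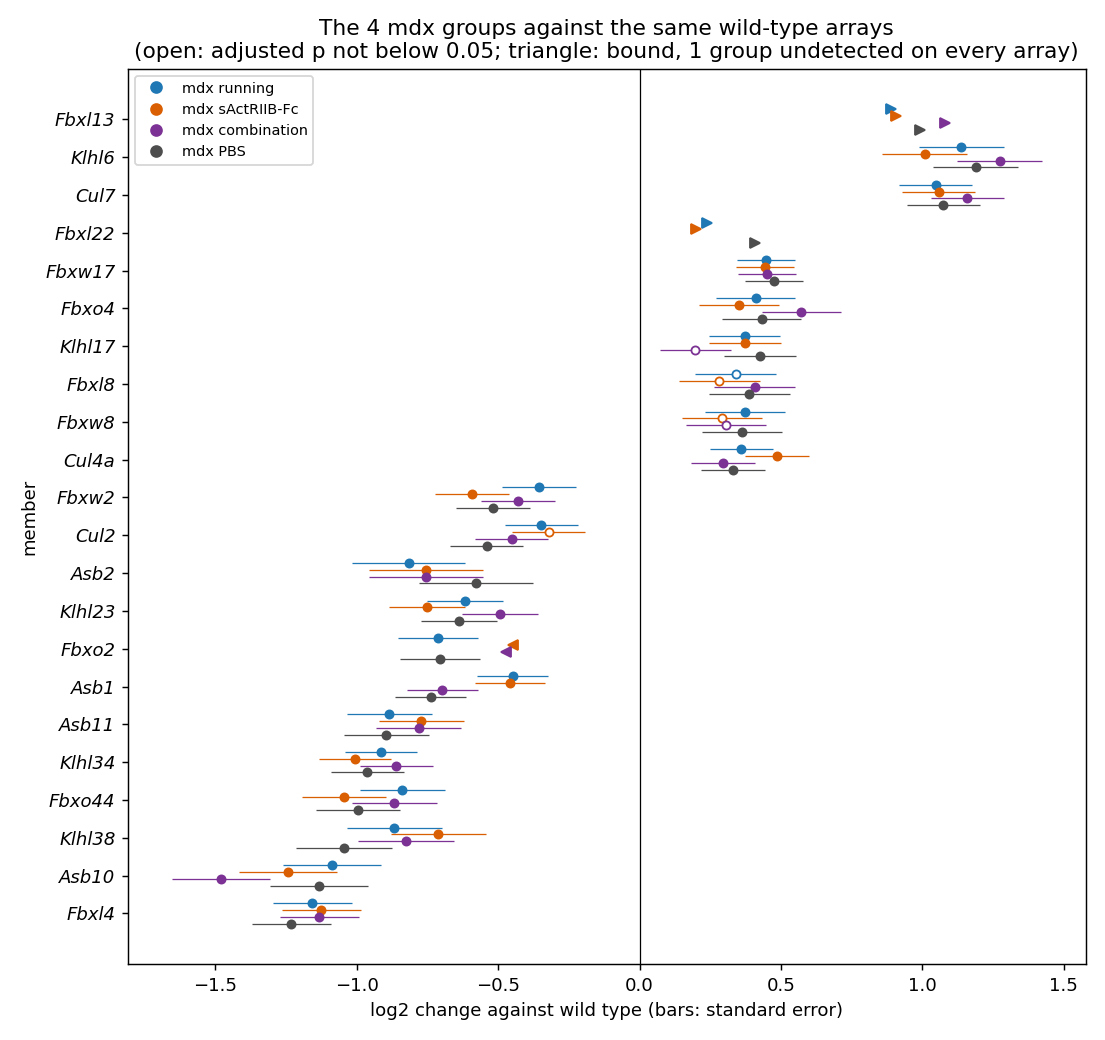
Log2 change against wild type (horizontal axis, with standard error) of the 22 members named for their changes in mdx PBS (vertical axis), in the 4 mdx groups, which share the 4 wild-type arrays. Filled points passed at an adjusted p below 0.05 and open points did not, and triangles are bounds where the probe was undetected on every array of 1 group. Fbxl13 stands at bounds of 0.89 to 1.08, and Fbxl22 has a bound of 0.41 in mdx PBS and no point in mdx combination, where no bound holds.

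No member passed in the 6 comparisons made among the mdx groups, which were running, sActRIIB-Fc and the combination each against PBS, either treatment averaged over the other, and their interaction. The combination was not set against either treatment alone. The share of all tested genes that passed was 0.0112% for running against PBS and for running averaged over sActRIIB-Fc, and 0% for the other comparisons. At an unadjusted p below 0.05 in limma there were 1 member for running, 3 for sActRIIB-Fc and 6 for the combination against mdx PBS, beside 297, 285 and 523 of 8945 genes (3.32%, 3.19% and 5.85%). The counts for running averaged, sActRIIB-Fc averaged and the interaction were 4, 4 and 3 members, beside 599, 282 and 356 genes (6.70%, 3.15% and 3.98%). The median absolute change of the members was 0.05, 0.09 and 0.09 in the 3 treated groups against mdx PBS, whereas it was 0.30 in mdx PBS against wild type. All tested genes showed the same contrast, with 0.08, 0.08 and 0.10 against mdx PBS and 0.26 in mdx PBS against wild type.

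Fbxl22, the sarcomeric F-box gene, had the lowest p of any member in a treatment comparison. It had 5.17, 5.37, 5.45, 5.17 and 5.73 in mdx combination, against 6.22, 6.00, 5.70, 5.78 and 6.02 in mdx PBS. The ranges overlapped by the highest mdx combination array, and the change was -0.57 ± 0.13 with a 95% interval of -0.83 to -0.30 (adjusted p = 0.233). In mdx running and mdx sActRIIB-Fc its means were 5.77 ± 0.13 and 5.73 ± 0.21, against 5.94 ± 0.21 in mdx PBS (SD, n = 5 each). It was detected on 3 of 5 mdx combination arrays and on all 5 arrays of each of the other mdx groups.

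Asb1 was the single member whose arrays did not overlap between either treatment alone and PBS, where 0.492% and 0.481% of all genes were apart on the higher side. It had 6.34, 6.03, 6.21, 6.24 and 6.19 in mdx running and 6.12, 6.13, 5.98, 6.35 and 6.39 in mdx sActRIIB-Fc, against 5.95, 5.91, 5.86, 5.86 and 5.98 in mdx PBS. The lowest mdx sActRIIB-Fc array and the highest mdx PBS array differed only beyond the second decimal. The changes were 0.29 ± 0.12 (adjusted p = 0.997) and 0.28 ± 0.12 (adjusted p = 0.999). In mdx combination the values were 6.11, 5.81, 5.47, 6.20 and 6.17, and the interaction, the change with running under the trap minus that under PBS, was -0.53 ± 0.17 (adjusted p = 0.926).

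Fbxo36 was the single member apart between mdx combination and mdx PBS, with 6.35, 6.08, 5.89, 6.06 and 5.97 in mdx combination, against 5.88, 5.81, 5.87, 5.60 and 5.75 in mdx PBS, where 0.425% of all genes were apart on the higher side. Its change was 0.29 ± 0.11 (adjusted p = 0.826). Klhl30 stood at -0.45 ± 0.17, Klhl9, mutated in a human distal myopathy, at -0.34 ± 0.16 and Asb10 at -0.35 ± 0.16 in mdx combination against mdx PBS, with adjusted p of 0.826, 0.826 and 0.837. Fbxo40 was lower in mean than mdx PBS in each treated group, by -0.19 ± 0.14 in mdx running, -0.31 ± 0.14 in mdx sActRIIB-Fc and -0.32 ± 0.14 in mdx combination, with adjusted p of 0.997, 0.999 and 0.826. These 3 differences share the mdx PBS arrays. In mdx sActRIIB-Fc the change of Klhl38 was 0.33 ± 0.16 (adjusted p = 0.999).

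**Figure D5:**
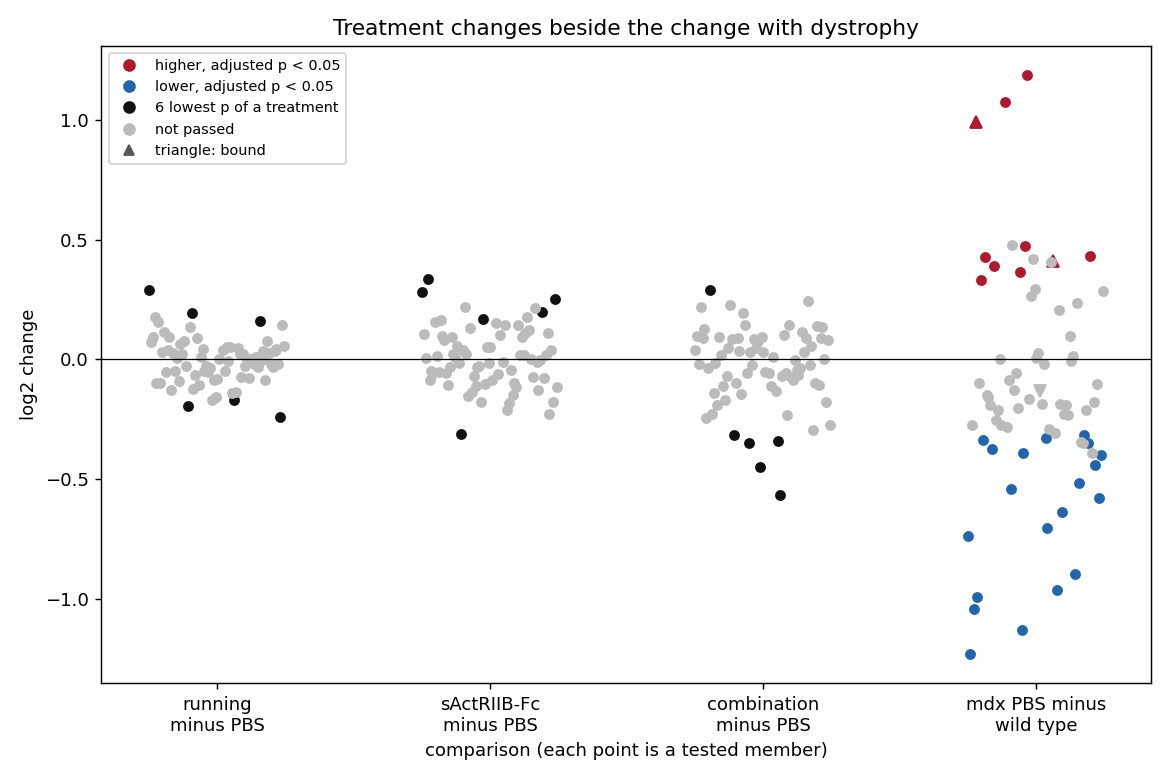
Log2 change (vertical axis) of the tested members in the 3 treated mdx groups minus mdx PBS and in mdx PBS minus wild type; points are spread sideways for legibility, mdx PBS is shared by all 4 columns, triangles are bounds, and Asb9, Fbxo2 and Klhl32 have no point where a group was undetected on every array and no bound holds. No member passed in the treatment columns, where changes ran from -0.57 to 0.33, whereas in the last column the round red and blue points reach 1.19 and -1.23 and the triangle of Fbxl13 stands at 0.99.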

How the data were processed

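Bead-array signals of 24 gastrocnemius samples in 5 groups were analysed. The authors' deposited table held intensity values, the bead signal of each probe without background subtraction, and detection p-values against the negative controls, per the file headers. A second deposited matrix held log2 values, which differed by at most 0.005 from log2 of the quantile-normalized signals. The software behind them is not given in the sources used here.

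Signals were corrected with normexp (controls inferred from the detection p-values, offset 16), quantile-normalized and put on a log2 scale in limma 3.58.1 under R 4.3.3. Probes with a detection p below 0.05 on at least 4 arrays were kept, and the one with the highest mean stood for its gene. Symbols came from the platform annotation. One linear model with 5 group means was fitted over all 24 arrays with empirical Bayes, two-sided, and adjusted by Benjamini and Hochberg over 8945 genes. The code was tested on simulated data. The number of arrays limits the precision. Each p-value tests a difference against the spread of arrays within groups, pooled over all 5 groups and moderated over genes. Signals of different probes were not compared.

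Named members were those with the largest changes in mdx PBS against wild type (up to 12 in each direction), a list of muscle adaptors, the 6 lowest p of each treatment comparison and the member with the highest mean signal of each family. The members and lists were chosen with earlier results of these data known. Alternatives were the deposited matrix, offset, scaling, filters, probe choice, groups fitted, spread estimate, replicate number, hepatocyte transcripts, array signal and leaving out each array. Scaling to the median of detected probes was added after seeing the data.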

Additional observations from a re-analysis of the deposited data

Results flagged for a closer look

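Within groups of 4 or 5 arrays, 10 single arrays lay far from the others of their group by Dixon's criterion, among 235 combinations of 47 named members and 5 groups, and chance gives about 1 in 20. Low arrays were mdx combination replicate 3 for Asb8 (10.66, the others 10.96 to 11.05) and for Cul1 (8.97, the others 9.20 to 9.28), mdx PBS replicate 1 for Klhl38 (6.21, the others 6.70 to 6.88), mdx PBS replicate 5 for Klhl7 (7.92, the others 8.63 to 8.65) and wild-type replicate 3 for Klhl31 (5.99, the others 6.46 to 6.52). High arrays were mdx sActRIIB-Fc replicate 3 for Fbxo25 (7.96, the others 7.43 to 7.55), mdx sActRIIB-Fc replicate 4 for Klhl34 (5.93, the others 5.53 to 5.64) and Klhl8 (8.10, the others 7.86 to 7.90), mdx PBS replicate 2 for Fbxw2 (6.71, the others 6.12 to 6.27) and wild-type replicate 4 for Fbxo36 (6.51, the others 5.95 to 6.02). The Fbxo36 call in mdx PBS against wild type was lost without that wild-type array.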

How the results depend on the processing

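None of the 30, 27, 31 and 38 members that passed in mdx PBS, mdx running, mdx sActRIIB-Fc and mdx combination against wild type changed sign in any setting that tested it. In mdx PBS against wild type, equal medians of all probes gave 17 members higher and equal medians of detected probes 32 lower, against 10 and 20. In mdx running the first gave 15 higher and 11 lower and the second 32 lower, against 9 and 18. In mdx sActRIIB-Fc the first gave 17 higher and 13 lower and the second 6 higher, against 11 and 20. In mdx combination the first gave 13 lower and the second 6 higher, a fit of only the compared groups gave 6 higher and 15 lower, and leaving out the 4 arrays rich in hepatocyte transcripts gave 7 higher and 12 lower, against 11 and 27. The share of higher calls was 54.8%, 57.7%, 56.7% and 53.6% under the first scaling and 20%, 17.9%, 17.6% and 15.4% under the second for mdx PBS, mdx running, mdx sActRIIB-Fc and mdx combination, against 33.3%, 33.3%, 35.5% and 28.9%. Leaving out 1 array at a time gave 7 to 12 higher and 16 to 25 lower in mdx PBS, 6 to 11 and 15 to 20 in mdx running, 7 to 12 and 17 to 22 in mdx sActRIIB-Fc, and 6 to 11 and 19 to 30 in mdx combination. The 7 of mdx sActRIIB-Fc and the 6 of mdx combination on the higher side both came without wild-type replicate 3. Of the 27, 31 and 38 members that passed in mdx running, mdx sActRIIB-Fc and mdx combination, 15, 16 and 14 passed in every setting. No member passed in the 6 comparisons made among the mdx groups in any of the 38 settings. Some members that had not passed changed sign. Under equal medians of all probes the changes of Klhl22, Klhl24, Klhl31 and Fbxo30 were 0.0803, 0.13, 0.0336 and 0.0473, and with each array's raw median as a covariate those of Klhl22 and Klhl24 were 8.72e-05 and 0.0477. Kbtbd2 had -0.11 under equal medians of detected probes, -0.0174 as the mean of its probes, -0.0013 with the hepatocyte level as a covariate and -0.041 with the raw median. Leaving out 1 array gave -0.17 to 0.0019 for Klhl22, -0.0662 to 0.0761 for Kbtbd2 and -0.34 to 0.0433 for Fbxo30. The cause of these shifts was not tested. The labels tie same-numbered arrays to no shared litter or day. Across groups their deviations had a median correlation of 0.116 (from -0.439 to 0.65, 25 of 46 pairs over 0.1), against -0.0492 for arrays of different number (44 of 184 over 0.1). Not every pair was over 0.1 and the labels name no shared factor, so the main fit did not use the numbers as pairs. Yet 14 of 24 arrays correlated best with their own number among 5, so the data hint at something shared that the main fit ignores. Raw median signals were 90.6 to 99 on arrays numbered 1 and 76 to 81.3 on those numbered 5. With the replicate number as a block, members higher and lower were 13 and 23 in mdx PBS, 11 and 21 in mdx running, 11 and 24 in mdx sActRIIB-Fc, and 11 and 31 in mdx combination. None of these counts was below that of the main fit. The slide as a block was not run, because the columns name no slides.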
